A study of Mus musculus with 12 samples.

Results

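The genes described here are mouse genes with a curated mRNA that the deposited table lists under the name of a RIKEN clone from a testis cDNA library. Their names begin with the code of 1 of 5 clone libraries and end in Rik, as in 4921507P07Rik, 4930453N24Rik, 4931431F19Rik, 4932438A13Rik and 4933411K16Rik. A gene was taken as a member if its symbol has this form and at least 1 of its transcripts has a RefSeq NM_ identifier, the mark of a curated mRNA. There were 131 members among 31766 genes and unannotated loci, of which 20702 had an NM_ transcript. The choice used names and identifiers and no measured value. The RefSeq table lists 127 of the members as protein coding, and the other 4 as transcribed pseudogenes (4921501E09Rik and 4930453H23Rik), a long noncoding RNA (4930567H17Rik) and an RNA of another kind (4930451G09Rik). The code of 4930453N24Rik was shared by 74 members, that of 4933411K16Rik by 27, those of 4921507P07Rik and 4931431F19Rik by 12 each, and that of 4932438A13Rik by 6. A further 412 genes with the same kind of name had only noncoding NR_ transcripts, and 111 coding genes had clone names that begin with 1700.

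RNA was measured in the testes of 12 C57BL/6 mice, an inbred strain, all labelled wild type and with no treatment. There were 3 mice at each of 3 months (3M), 6 months (6M), 12 months (12M) and 18 months (18M) of age. Each library came from whole testis, so fewer cells of a type and less RNA per cell cannot be told apart. The study leaves it unclear whether mice of an age shared a litter. The mice of an age may thus not be independent, and age and litter cannot be told apart.

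RIKEN clone names were given to full-length cDNAs sequenced before the function of the gene was known, and clones of these series came from testis. A gene often keeps such a name until it is characterized, so a list of this kind gathers many testis transcripts with little other description. Some described genes still carry the clone name, such as 4930447C04Rik, also called Six6os1. During spermatogenesis, spermatogonia divide by mitosis, spermatocytes carry out meiosis, and haploid spermatids reshape into sperm, replace histones with protamines and express many genes that are silent in other tissues. The RefSeq table matched all 131 members and gave 33 of them another symbol. Among these were Spem2, a relative of the sperm maturation gene Spem1, H2al3, a histone H2A-like gene, Ubqln5, of the ubiquilin family that carries ubiquitinated proteins to the proteasome, and Taf7l2, related to a subunit of the general transcription factor TFIID.

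The libraries held 50924104 to 71803379 estimated reads, and the members took 1.11% to 1.19% of them. Between libraries of the same age, log2 CPM of the members correlated at r = 0.991 to 0.996. The libraries fitted the labelled tissue: mean CPM reached 1 in all 16 spermatid markers and all 12 spermatocyte markers, and stayed below 1 in 7 of 9 markers of epididymis, liver, muscle and blood. Values are given as FPKM, which is scaled by transcript length and can be compared between genes, or as CPM, the read count scaled to a common library size after TMM normalization, which was used for tests between ages.

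The members' promoters were read from RefSeq (GRCm38.p6), as windows of 300 bases from 250 before to 50 after the start of the gene. Such windows were held for 110 members, 124 in all. They were poor in CpG, with a median of 4 CpG dinucleotides per window against 14 in 19908 windows of all other genes with an NM_ transcript and 5.5 in 110 windows of the 1700 genes. The median GC content was 49.0% against 57.0% in the other genes. The letters CAACTG, the core of the site bound by MYB factors, of which MYBL1 (A-MYB) acts in spermatocytes, stood on either strand in 24.2% of the member windows, in 12.1% of the windows of other genes and in 19.1% of those of the 1700 genes. By gene, 28 of the 110 members had a match. The 4 of these members with the highest FPKM, summed over all transcripts of the gene, are shown to let the match be read in its place. CAACTG or its complement is in capitals, and each window is written 5′ to 3′ along the gene.
4933402J07Rik, chr8:87563657-87563956, plus strand: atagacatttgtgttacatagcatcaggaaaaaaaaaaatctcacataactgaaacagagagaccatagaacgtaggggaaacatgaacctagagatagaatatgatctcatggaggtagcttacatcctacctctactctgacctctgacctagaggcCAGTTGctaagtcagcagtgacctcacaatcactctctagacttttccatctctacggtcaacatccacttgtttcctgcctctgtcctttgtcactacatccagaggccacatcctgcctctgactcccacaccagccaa
4933415F23Rik, chr1:23102204-23102503, minus strand: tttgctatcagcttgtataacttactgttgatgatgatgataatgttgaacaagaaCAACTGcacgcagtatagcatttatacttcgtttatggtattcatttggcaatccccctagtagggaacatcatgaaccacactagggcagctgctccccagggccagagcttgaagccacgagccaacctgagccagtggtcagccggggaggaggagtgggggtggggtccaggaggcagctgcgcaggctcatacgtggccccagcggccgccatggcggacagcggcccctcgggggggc
4930415O20Rik, chr15:98570754-98571053, plus strand: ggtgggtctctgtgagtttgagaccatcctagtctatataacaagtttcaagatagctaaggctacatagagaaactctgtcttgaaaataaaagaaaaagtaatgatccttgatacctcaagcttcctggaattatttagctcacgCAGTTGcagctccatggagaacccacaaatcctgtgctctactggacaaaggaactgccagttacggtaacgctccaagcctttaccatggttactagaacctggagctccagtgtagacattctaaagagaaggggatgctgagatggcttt
4933427G17Rik, chr7:120982259-120982558, plus strand: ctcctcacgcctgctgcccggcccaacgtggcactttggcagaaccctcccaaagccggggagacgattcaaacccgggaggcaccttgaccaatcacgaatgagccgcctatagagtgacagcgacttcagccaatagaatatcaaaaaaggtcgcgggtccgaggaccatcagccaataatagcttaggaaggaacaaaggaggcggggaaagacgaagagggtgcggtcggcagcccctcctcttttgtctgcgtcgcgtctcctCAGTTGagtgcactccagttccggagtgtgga

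In 4933402J07Rik the match began 91 bases before the start and in 4930415O20Rik 103 bases before it, both on the opposite strand. In 4933415F23Rik it began 194 bases before the start on the gene's own strand, and in 4933427G17Rik it lay 19 bases into the transcript. The window of 4933427G17Rik was the richest of these in CpG, with 20, and that of 4933402J07Rik the poorest, with 2. Only 9.98% of the reads of 4933427G17Rik lay on its NM_ transcript, and the rest lay on 10 transcripts assembled by the authors. Whether those transcripts start at the window shown was not tested. A match of 6 letters is a description of the window and was not tested for binding. With all transcripts summed, the members with and without a match were at similar levels. The median was 16.6 FPKM in 28 members and 16.7 FPKM in 82 members.

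Other motifs were searched on both strands in the same windows. TATAAA stood in 14.5% of member windows and 12.3% of those of other genes, CCAAT in 33.1% and 38.2%, TGACGT in 5.65% and 8.86%, and TGACGTCA, the full CRE bound by CREM, which contains TGACGT, in 0.806% and 2.35%. In windows of the 1700 genes TATAAA stood in 9.09%, CCAAT in 33.6%, TGACGT in 5.45% and TGACGTCA in 0.909%. The CRE was found in 1 member. Position and gene structure were compared in the same way, as counts with no test. On the X chromosome lay 20 of 131 members, or 15.3%, against 4.18% of 20571 other coding genes and 5.41% of the 1700 genes. The median member had 4 exons and a transcript of 1719 nt, against 7 exons and 2437 nt in other coding genes. In the 1700 genes the medians were 4 exons and 978 nt. Of the members 19, or 14.5%, had 1 exon, against 10.3% of other coding genes and 6.31% of the 1700 genes. The median protein had 319.5 residues in 122 members with a coding match, against 407 in the other genes and 210 in the 1700 genes.

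**Figure D1:**
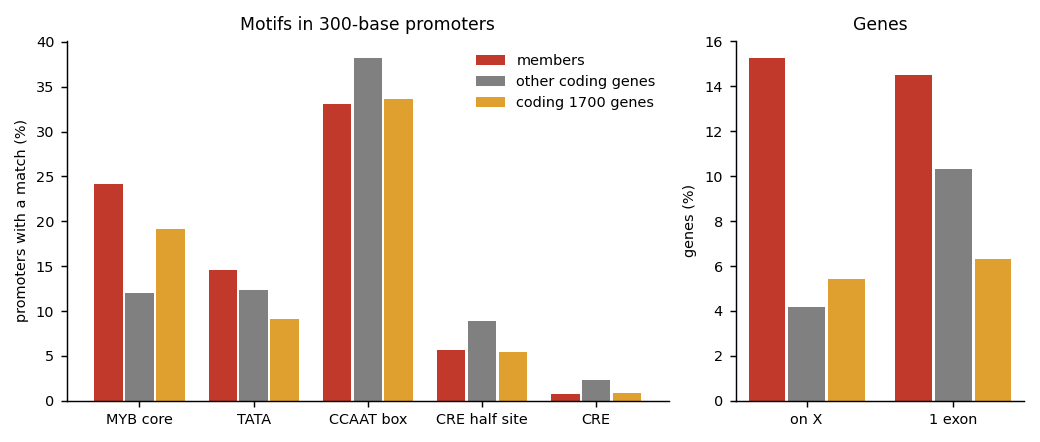
Left, share of 300-base promoter windows with each motif on either strand (vertical axis, percent) in members, all other coding genes and coding genes with 1700 names. Right, share of genes on the X chromosome and with 1 exon. The MYB core was in 24.2% of member windows and 12.1% of others, and 15.3% of members were on X against 4.18% of others.

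Protein length ran from 98 residues in 4932443I19Rik, renamed Cfap97d2, to 5005 residues in 4932438A13Rik, also known as Kiaa1109 or Tweek, a very large lipid transfer protein. The short gene was barely present, at 0.612 ± 0.190 FPKM (SD, n = 12). The long one was at 16.2 ± 1.79 FPKM, but only 11.5% of its reads lay on its NM_ transcript and the rest on 14 transcripts assembled by the authors. Over all members, 69.7% of reads lay on NM_ transcripts. In 62 members all reads did, and in 45 members fewer than 50% did, so for those members the level depends on assembled isoforms.

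Nearly all members were present in testis, which the choice by names of testis clones favored in advance. Of 131, 122 had a mean of 1 FPKM or more in at least 1 age, or 93.1%, against 60.2% of other coding genes and 99.1% of the 1700 genes, and 116 were at 1 FPKM or more in every library. The median member was at 16.2 FPKM, the median of other coding genes at 2.20 FPKM and that of the 1700 genes at 78.7 FPKM. The noncoding genes with the same kind of name had a median of 3.55 FPKM. Levels were uneven: 12 members were at 100 FPKM or more, 68 at 10 to 100, 41 at 1 to 10, and 10 below 1, and the 10 highest members made up 52.9% of the members' summed FPKM.

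**Figure D2:**
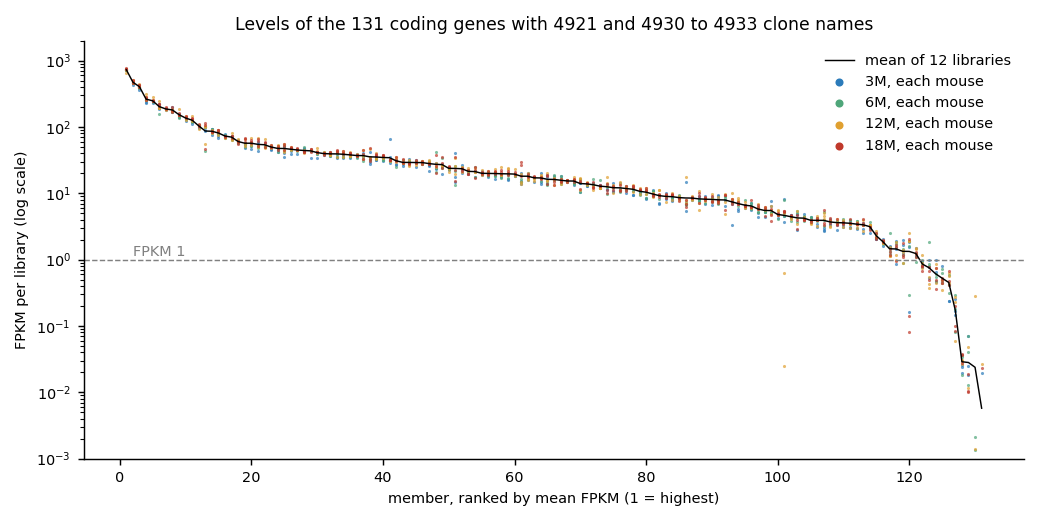
FPKM of the 131 members on a log scale (vertical axis), ranked by the mean of 12 libraries (horizontal axis). Points are single mice, colored by age, and the line is the mean. Values below 0.001 and zeros are not drawn. For most members the 12 points lie close together, while a few members near ranks 101 and 120 have single libraries far below their mean.

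The highest member was 4933411K16Rik (mm10 chr19:42052228-42053628, plus strand), a gene of 1 exon and 304 residues with no assigned function, whose exon overlaps the gene Hoga1 on the same strand. It was at 735, 717 and 739.9 FPKM in the 3M mice, 732, 736 and 735 at 6M, 723, 739 and 664 at 12M, and 743, 739 and 765 at 18M. The ages overlapped, and its coefficient of variation (CV, SD over mean) was 3.31% over the 12 libraries. It was followed by 4930453N24Rik, with 466, 435 and 467 FPKM at 3M, 457, 469.5 and 468 at 6M, 476, 469 and 510.5 at 12M, and 468, 494 and 508 at 18M. The lowest 18M mouse was barely above the highest 3M mouse, and in CPM the ages overlapped. The next was 4930571K23Rik, also of 1 exon, with 397, 367 and 391 FPKM at 3M, 397, 396 and 389 at 6M, 413, 400.2 and 439 at 12M, and 399, 429 and 429 at 18M. Its 18M and 3M values did not overlap.

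The next 7 members lay between 137 and 263 FPKM. Spem2 (4933402P03Rik) ranged from 231 to 280.1 FPKM with a median of 247, and 46.7% of its reads lay on its NM_ transcript. 4933402J07Rik, whose promoter is shown, ranged from 232 to 311 with a median of 258. 4930503B20Rik, also called Samd13, was the least even of the 10 highest members, at 157 to 243 FPKM. Ppp1r14bl (4933415F23Rik), of 1 exon and named for its likeness to an inhibitor subunit of protein phosphatase 1, was the most even of the 10, at 178 to 198 FPKM with a CV of 2.68%. 4921507P07Rik and 4930544G11Rik had CVs of 5.85% and 4.68%. 4930544D05Rik was at 153 FPKM with all transcripts summed and at 63.2 FPKM with its NM_ transcript alone, the only one of the 10 whose level fell by more than 1.5 times in this way.

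**Figure D3:**
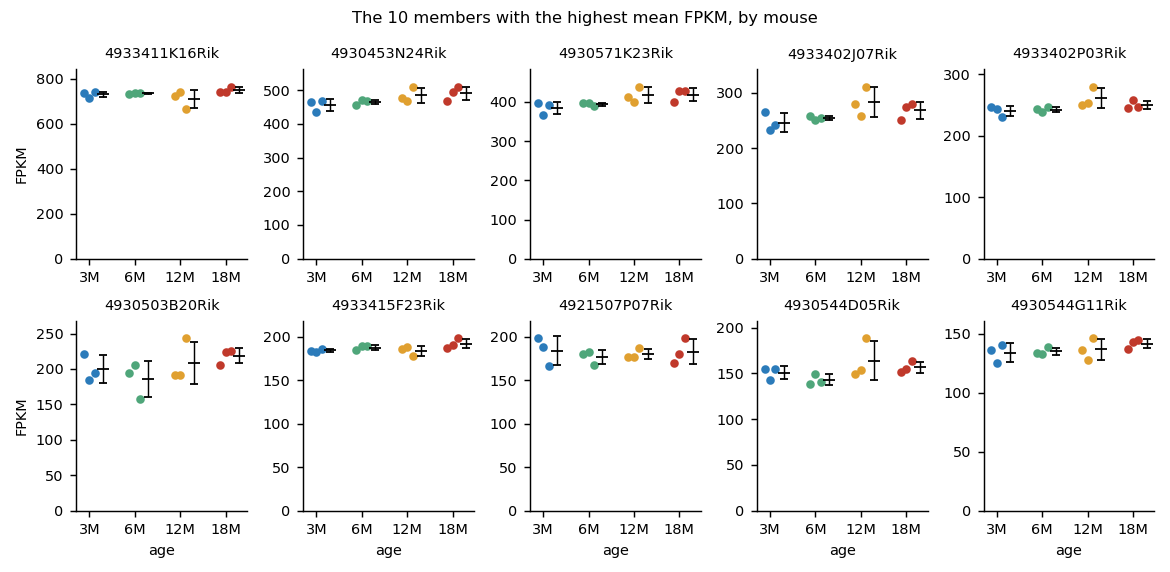
FPKM (vertical axis, from 0) of the 10 members with the highest mean FPKM, by age (horizontal axis). Points are single mice, and bars are the mean and SD of the 3 mice of an age. The values of the ages lie close together in each panel, with 4933411K16Rik at 664 to 765 FPKM in all libraries.

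The next highest of the members with another symbol lay between 31.0 and 104 FPKM. H2al3 (4930557A04Rik), on the X chromosome, was at 56.9 ± 5.60 FPKM (SD, n = 12). Spertl (4921530L21Rik), named for its likeness to a spermatid gene, was at 54.7 FPKM, Ubqln5 (4931431F19Rik) at 45.0, A26c3 (4930430A15Rik) at 44.2, Spata48 (4930415F15Rik) at 38.8, Tex50 (4930469G21Rik) at 34.5 and Tex47 (4921511H03Rik) at 31.0 FPKM. Fam243 (4930563D23Rik) was at 104 FPKM, Taf7l2 (4933416C03Rik) at 73.1, Lypd9 (4930504O13Rik) at 70.3, Tmem269 (4930538K18Rik) at 54.0, Mfsd13b (4933427G17Rik) at 47.5 and Iqca1l (4931409K22Rik) at 47.4 FPKM. The levels of 5 of these 13 genes rest largely on assembled isoforms. With NM_ transcripts alone Mfsd13b was at 5.29 FPKM, A26c3 at 8.09, Iqca1l at 14.1 and Spertl at 24.8 FPKM, and Spata48 was also lower by more than 1.5 times, while the other 8 were lower by less than 1.5 times or at the same level. A pair of meiotic genes was among the members, of which the latter was named after its values were seen. Six6os1 (4930447C04Rik), a component of the central element of the synaptonemal complex, was at 8.47 ± 0.311 FPKM, and Brme1 (4930432K21Rik), a partner of the BRCA2-binding factor HSF2BP in meiotic recombination, at 29.2 ± 1.80 FPKM. On NM_ transcripts alone they were at 0.877 and 19.3 FPKM.

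Members on the X chromosome were lower than the rest, with a median of 5.08 FPKM in 20 genes against 19.7 FPKM in 111. The members of 1 exon had a median of 38.0 FPKM in 19 genes, and those with more exons 14.7 FPKM in 112. These are descriptions of groups of genes within the same libraries. The same splits are not given for other coding genes, so the differences are not shown to be particular to the members. At the low end, 4 members were under 0.1 FPKM. They were 4930432M17Rik, Dipk2b (4930578C19Rik), Tex52 (4933413G19Rik) and 4931428F04Rik, and they were named after their values were seen. The last of these was at 0.279 FPKM in 12M mouse 2, with a mean of 0.000173 FPKM at 3M and 0.000396 FPKM at 18M. Tex52 shares exons with Foxm1 on the same strand. In all, 29 members overlapped an exon of another gene, 22 on the opposite strand and 7 on the same strand, and reads in such stretches cannot be assigned with certainty in these unstranded libraries.

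No member was called changed with age. In the test of a slope on age in months over all 12 libraries (edgeR quasi-likelihood test, Benjamini-Hochberg adjusted p of 0.05 or less over all genes and loci), 0 of 127 fitted members passed, while 0.173% of 25421 genes and loci did. Between 3M and 18M 0 of 126 passed, against 0.0685% of all, between 3M and 6M 0 against 0.0686%, between 6M and 12M 0 against 0.0403%, and between 12M and 18M 0 against 0.0201%. The smallest adjusted p among members in the slope test was 0.130 (edgeR), in 4930415O20Rik. DESeq2, run on the same reads, called 4 members in the slope test, against 2.2% of all, and 2 between 3M and 18M, against 1.17% of all, with 0 in the other comparisons.

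Below that threshold, the fitted slopes of the members leaned upward. The slope was above 0 in 97 of 127 members, or 76.4%, against 51.3% of all genes and loci. At an unadjusted p of 0.05 or less, 25 members had a positive and 2 a negative slope, against 7.42% and 7.82% of all, and between 3M and 18M 15 members were higher at 18M, against 5.65% of all. The count of positive slopes was 14, with 0 negative, without 3M mouse 2, and 12, with 0 negative, with NM_ transcripts only. Counted in either direction, the members' share was then no longer above that of all genes and loci. It was 10.9% against 11.4% without 3M mouse 2, and 9.76% against 11.9% with NM_ transcripts only. All members counted there rose, while the shares of all genes and loci hold rises and falls together. These shares therefore do not show whether the upward lean was lost. The slopes themselves still leaned upward, with 94 of 128 above 0 without 3M mouse 2 and 85 of 123 with NM_ transcripts only. The members' median log2 slope per month was 0.0033 and 0.0044 in these settings, against -3.0e-05 and 1.4e-05 over all genes and loci. The count higher at 18M was 26 without 3M mouse 1 and 7 with NM_ transcripts only. In either direction, 23.8% of members passed without 3M mouse 1, against 12.8% of all. With NM_ transcripts only it was 5.74% against 8.81%. By step, the unadjusted count in either direction was near or below the background. It was 5 members, or 3.97%, between 3M and 6M, against 3.92% of all, 10, or 7.94%, between 6M and 12M, against 7.54%, and 2, or 1.59%, between 12M and 18M, against 3.52%. These counts were unstable, at 1 to 13 between 3M and 6M with each library left out. The 13, without 3M mouse 3, were 10.2% against 4.82% of all, and without 3M mouse 2 it was 0.794% against 3.48%. Between 6M and 12M the count was 4 without 6M mouse 2, or 3.17% against 5.54%. Between 12M and 18M it was 15 without 12M mouse 3, or 11.9%, where 8.58% of all genes and loci passed. The median member changed by a log2 of 0.075 over the 15 months of the slope, with the middle 50% of members between 0.0082 and 0.155, and the median over all genes and loci was 0.0061. Without 3M mouse 2 the members' median was 0.049. For scale, the median CV of a member over the 12 libraries was 8.99% in the 124 members at 1 CPM or more.

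The medians of the other sets with clone names were also above 0, and higher than that of the members. The 1700 genes had a median log2 change of 0.145, with 104 of 110 slopes above 0, the noncoding genes of the same names 0.104, with 287 of 389 above 0, and all other coding genes -0.026, with 43.7% above 0. Step by step, the members' median log2 difference was 0.032 from 3M to 6M, 0.056 from 6M to 12M and 0.0078 from 12M to 18M, and neighboring steps share the libraries of an age. With each library left out the first ranged from 0.0024, without 3M mouse 2, to 0.042, the second from 0.039 to 0.085, and the last from -0.0084, without 12M mouse 2, to 0.018, so the direction of the last step is not settled. With only NM_ transcripts summed, 85 of 123 member slopes were above 0. Leaving out each library in turn left 86 to 98 above 0, of 127 or 128.

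**Figure D4:**
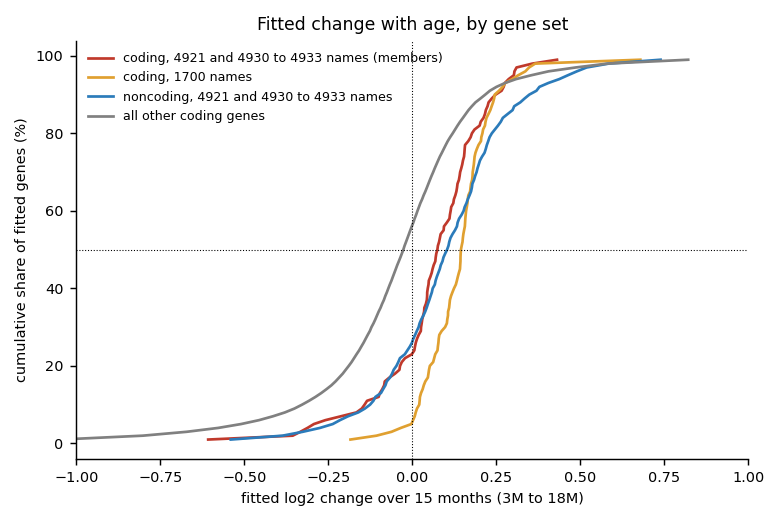
Cumulative share of genes (vertical axis, percent) by fitted log2 change over 15 months (horizontal axis) for the members, the coding genes with 1700 names, the noncoding genes with the members' kind of name and all other coding genes. The medians, where curves cross the dotted line at 50%, lie at 0.075, 0.145, 0.104 and -0.026.

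Markers of cell types moved beside these values. The median log2 change over 15 months was 0.180 in the 16 spermatid markers, with 15 slopes above 0, and 0.026 in the 12 spermatocyte markers, with 7 above 0. It was -0.936 in the 8 Leydig cell markers, with 1 above 0 and 2 called lower by edgeR in the slope test, and -0.313 in the 8 peritubular and stromal markers, with 0 above 0 and 1 called. In the 10 spermatogonia markers it was -0.138, with 3 above 0, and in the 10 Sertoli cell markers -0.041, with 3 above 0. The 6 endothelial markers had -0.163, with 1 above 0, and the 8 fitted macrophage and lymphocyte markers -0.197, with 2 above 0. The summed Leydig cell markers lay between 884 and 1062 CPM in the 3M mice, 827 and 1334 in the 6M mice, 634 and 706 in the 12M mice, and 558 and 771 in the 18M mice. The summed spermatid markers, in the same order of ages, lay between 24001 and 26163, 23138 and 25089, 25416 and 30322, and 25092 and 28591 CPM. The summed members lay between 11070 and 11548 CPM in the 3M mice, 10976 and 11729 in the 6M mice, 11517 and 11842 in the 12M mice, and 11469 and 11870 in the 18M mice, so the youngest and oldest mice overlapped. The part of the cell types in the members' values was not tested.

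Read against each mouse, 25 of 126 members had values that did not overlap between 3M and 18M. In 22 of them, or 17.5%, all 18M mice were higher, against 9.58% of all genes and loci, and in 3, or 2.38%, all were lower, against 10%. The 3 lower ones were A26c3, Brme1 and 4930426D05Rik. A26c3 was at 347 ± 14.9 CPM at 3M and 316 ± 1.13 CPM at 18M (SD, n = 3), and Brme1 at 81.9 ± 3.21 and 75.7 ± 0.578 CPM. In both directions together, 19.8% of members and 19.6% of all genes and loci did not overlap. With 1 mouse fewer, fewer values can overlap in any gene. Without 3M mouse 1 the count was 47 members, or 37.3%, against 33.1% of all, without 3M mouse 3 it was 51, or 40.5%, against 33%, and without 18M mouse 1 it was 45, or 35.7%, against 34%. In each of these 3 settings 40 members, or 31.7%, were higher at 18M, against 16.8%, 16.8% and 16.5% of all.

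A continuous change, a mean FPKM that rises or falls at each of the 3 steps between ages, was found in 20 of the 122 members at 1 FPKM or more. It was a rise in 19, or 15.6%, against 5.88% of 12504 coding genes, and a fall in 1, against 9.11%. Of these 19, 12 also had no overlap between 3M and 18M in CPM, 4930571K23Rik and Spata48 among them, while 4930453N24Rik, 4930544G11Rik and Ubqln5 had rising means but overlapping mice. The fall was in A26c3, from 45.8 FPKM at 3M to 42.3 FPKM at 18M. The largest rise of this kind was in 4933421I07Rik, from 9.93 to 12.6 FPKM, or 27%, and the smallest in 4930544G11Rik, at 5.68%. The count fell to 11 with NM_ transcripts alone, with 10 rising, or 8.7% against 5% of coding genes, and to 10 without 12M mouse 2, all rising, or 8.2% against 4.53%.

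The largest fitted rises among members at 1 CPM or more were in 5 genes. 4930415O20Rik, of 131 residues and no assigned function, had the smallest adjusted p of them. It was at 31.8, 28.9 and 33.3 CPM at 3M, 30.2, 33.0 and 34.4 at 6M, 33.7, 31.8 and 39.0 at 12M, and 40.4, 36.6 and 39.9 at 18M. All 18M mice stood above all 3M and 6M mice, and the fitted log2 change was 0.31 ± 0.074 (SE) over 15 months, with an adjusted p of 0.130 (edgeR). DESeq2 gave an adjusted p of 0.0174. Its promoter is the CpG-poor window shown with 3 CpG and the MYB core.

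4930451I11Rik, of 111 residues, was at like levels up to 12M and higher at 18M. It was at 14.6, 12.3 and 12.7 CPM at 3M, 13.2, 13.8 and 14.6 at 6M, 13.6, 11.2 and 15.6 at 12M, and 15.8, 18.99 and 19.3 at 18M. Between 3M and 18M it differed by a log2 of 0.45 ± 0.110 (SE), with an adjusted p of 0.350 (edgeR) and 0.0233 (DESeq2). Only 30.5% of its reads lay on its NM_ transcript.

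4930449I24Rik had the largest fitted rise of all members at this level, 0.44 ± 0.231 (SE), but with an adjusted p of 0.380 (edgeR). Its 3M mice lay close together at 3.41, 3.48 and 3.72 CPM, and the older mice at 4.97, 4.06 and 6.37 at 6M, 6.28, 5.12 and 5.60 at 12M, and 6.86, 4.12 and 4.53 at 18M. Every older mouse was above every 3M mouse, with a wide spread within each older age. Its protein shares 71.0% identity over 193 residues with that of 4933421I07Rik, which lies on another chromosome and had the largest continuous rise. 4933421I07Rik was at 12.4, 12.1 and 14.4 CPM at 3M and 16.6, 16.0 and 16.8 at 18M, a fitted log2 change of 0.30 ± 0.094 (SE) with an adjusted p of 0.194 (edgeR). Reads of such similar genes may be shared in counting, so neither value is certain.

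In 4930453H23Rik and 4930563M21Rik the fitted rise came with uneven mice. 4930453H23Rik, listed by RefSeq as a pseudogene on X, was at 5.84 CPM in 3M mouse 3 and at 11.8 to 16.9 CPM in the other 11, and its fitted change was 0.32, or 0.083 without that mouse. 4930563M21Rik was highest at 12M, at 57.8 to 69.5 CPM, and at 45.5 to 62.2 CPM at 18M, and 0.0794% of its reads lay on its NM_ transcript. DESeq2 also called 4930523C07Rik, 4930578I06Rik and 4933417A18Rik upward in the slope test, named here for that reason. Their DESeq2 log2 changes over 15 months were 0.27 ± 0.080, 0.20 ± 0.059 and 0.23 ± 0.069 (SE), with adjusted p of 0.0414, 0.0348 and 0.0372, and edgeR gave 0.153, 0.134 and 0.142. In all 3 the 18M mice were above the 3M mice, for example 149, 152 and 154 against 138, 125 and 135 CPM in 4930578I06Rik.

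**Figure D5:**
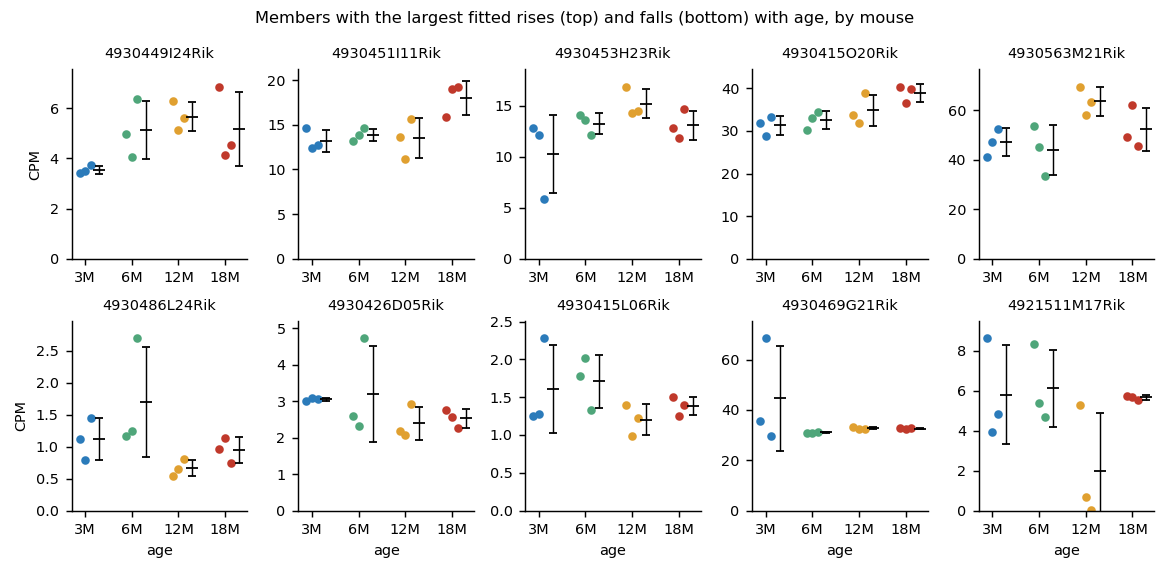
CPM (vertical axis, from 0) by age (horizontal axis) of the 5 members with the largest fitted rises (top row) and the 5 with the largest fitted falls (bottom row) among members at a mean of 1 CPM or more. Points are single mice, and bars are the mean and SD of 3 mice, cut at 0 in 4921511M17Rik at 12M. In 4930415O20Rik all 18M mice lie above all 3M mice, while 4930469G21Rik has 1 mouse at 68.5 CPM and all others at 29.7 to 35.6 CPM.

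The 5 members with the largest fitted falls had uneven mice or low levels. 4930486L24Rik had a fitted log2 change of -0.69 ± 0.418 (SE), with an adjusted p of 0.451 (edgeR). It was at 1.12, 0.791 and 1.44 CPM at 3M, 1.16, 1.25 and 2.69 at 6M, 0.543, 0.654 and 0.803 at 12M, and 0.970, 1.14 and 0.739 at 18M, so that 6M mouse 3 stood alone. The same mouse was highest in 4930426D05Rik, at 4.72 CPM against 2.07 to 3.08 in the others. Without 6M mouse 3 the fitted changes of both genes were smaller but still negative, at -0.41 in 4930486L24Rik and -0.24 in 4930426D05Rik. In 4930426D05Rik the 3M mice, at 3.01 to 3.08 CPM, also stood above the 18M mice, at 2.26 to 2.75 CPM. Tex50 (4930469G21Rik) was at 68.5 CPM in 3M mouse 2 and at 29.7 to 35.6 CPM in the other 11 mice. Its fitted change was -0.33 with that mouse and 0.034 without it, and the other 11 mice were even. In Samt1c (4921511M17Rik), also among these 5 members, the fitted change was -0.31, with an adjusted p of 0.895 (edgeR). There 12M mice 2 and 3 were low.

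4930415L06Rik and 4932429P05Rik form the most alike pair of members. Both lie on X, their proteins share 73.2% identity over 801 residues, and the former is also called Ppp4r3c, after a regulatory subunit of protein phosphatase 4. 4932429P05Rik was at 3.91 ± 0.439 FPKM and 4930415L06Rik at 0.525 ± 0.129 FPKM (SD, n = 12). Their fitted log2 changes were 0.12 and -0.34, with adjusted p of 0.678 and 0.506 (edgeR). Besides the pairs given, 11 other pairs of members had similar proteins, from 26.2% to 60.5% identity over at least 50% of the longer chain. By position, 7 pairs of members lay within 200000 bases of each other.

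A pair of X-linked members had the highest CVs, with single mice far below the others. 4933416I08Rik (mm10 chrX:53686491-53691332, plus strand) had the highest CV in CPM of the members at 1 CPM or more, 66.6%. It was at 2.46, 0.229 and 2.09 CPM at 3M, 0.394, 2.61 and 2.17 at 6M, 2.56, 2.64 and 3.34 at 12M, and 0.194, 2.77 and 0.112 at 18M. The mice fell on either side of a wide gap, with 4 at 0.394 CPM or less and 8 at 2.09 CPM or more, and low mice occurred at 3M, 6M and 18M. Between 12M and 18M its adjusted p was 0.999 (edgeR), and without 18M mouse 2 it became 0.0222. Samt1c (4921511M17Rik), of a family of multipass membrane proteins of spermatogenesis, was at 8.63, 3.94 and 4.83 CPM at 3M, 8.32, 5.41 and 4.67 at 6M, 5.30, 0.673 and 0.0315 at 12M, and 5.75, 5.70 and 5.55 at 18M. The low mice were 12M mice 2 and 3. This gene shares exons with Samt1, so reads may be divided between these genes. Its 2 listings in the deposited table were summed.

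The most even members were of several kinds. In CPM, Six6os1 had the lowest CV, 2.75%, at 15.8 to 17.4 CPM in all 12 libraries, followed by Ppp1r14bl at 3.21% and 4930590J08Rik at 3.75%. In FPKM the order differed, with Ppp1r14bl lowest at 2.68%, then 4930402H24Rik at 2.70% and 4930590J08Rik at 3.02%, and Six6os1 at 3.67%. Only 8.20% of the reads of 4930590J08Rik and 10.7% of those of Six6os1 lay on NM_ transcripts. Their evenness is thus that of sums over assembled isoforms. With NM_ transcripts only, the fitted log2 change of 4930590J08Rik was 1.36, against -0.00098 with all transcripts summed. 4921509C19Rik, a gene named in the study, with a protein of 640 residues, was less even, with a CV of 20.3%. It was at 80.1, 74.3 and 57.3 CPM at 3M, 115, 71.1 and 68.3 at 6M, 76.5, 75.7 and 74.5 at 12M, and 69.3, 82.8 and 107 at 18M. The ages overlapped, single mice at 6M and 18M were highest, and the fitted log2 change was 0.18 ± 0.191 (SE) with an adjusted p of 0.692 (edgeR).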

How the data were processed

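Testis RNA of 12 mice, 3 at each of 4 ages, was depleted of ribosomal RNA and sequenced from both ends without strand. The authors aligned reads with HISAT2 to mm10 and assembled transcripts with StringTie 1.3.3b. The table they deposited holds estimated counts per transcript, rounded up to whole numbers, and FPKM as deposited, not normalized between libraries. Transcripts of class =, c, j and o were summed per gene. Depth was 50924104 to 71803379 estimated reads per library.

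Summed counts were tested with edgeR 4.0.16 (TMM, filterByExpr, quasi-likelihood, Benjamini-Hochberg over all genes and loci) in R 4.3.3, for the slope on age in months and 4 pairs of ages. Alternatives were DESeq2 1.42.0, its size factors, no filter, NM_ transcripts only, a limit of log2 1, the mouse number as a block, all libraries, log2 age, other FPKM minimums, and each library left out. On simulated counts with 200 changed genes, edgeR recovered 64.5% of 2-fold changes in the slope test over 25233 genes and 36.0% between 3M and 18M over 24528 genes. Named were the 10 members of highest FPKM, the 5 largest rises and falls, the 3 highest and lowest CVs at 1 CPM or more, the most similar pairs, the longest and shortest protein, 4921509C19Rik and the 15 highest renamed members; exceptions are stated. Members and lists were chosen with earlier results of these data known. Protein lengths came from GENCODE vM21 coding lengths, protein similarity from BLAST+, and promoters from RefSeq.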

Additional observations from a re-analysis of the deposited data

Results flagged for a closer look

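Reads outside the values above were found at members. The sums left out 17 assembled transcripts at 13 members that lie antisense to a member's exons (class x) or inside an intron (class i), and 11 of them had a mean of 1 CPM or more over the 12 libraries, above the 0.0589 CPM that 3 reads stand for in the smallest library. Since the libraries keep no strand, the antisense assignments are uncertain.

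The highest was antisense to 4930523C07Rik, at 6.93 CPM, and the next antisense to 4932438A13Rik (Kiaa1109), at 6.32 CPM. Annotated noncoding genes overlap exons of these members on the opposite strand, 4930562F07Rik in the former and Gm12531 in the latter. The same holds for 4930566F21Rik at 4930548H24Rik. Whether the assembled transcripts belong to these genes was not tested. Transcripts antisense to 4930555G01Rik, 4930548H24Rik, 4930402F06Rik and 4933409G03Rik were at 3.44, 3.27, 1.54 and 1.53 CPM, and a pair antisense to 4931408C20Rik at 3.00 and 1.14 CPM. Transcripts within introns of 4931423N10Rik and 4932443I19Rik (Cfap97d2) were at 4.07 and 3.53 CPM, the latter above the member itself, which had 0.304 to 0.827 CPM.

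The intronic transcript of 4932414N04Rik had a mean of 5.56 CPM and differed most between mice. It was at 8.34, 3.97 and 9.28 CPM at 3M, 0, 0 and 9.36 at 6M, 0, 0 and 10.7 at 12M, and 10.7, 10.4 and 4.01 at 18M. It was thus at 0 in 4 libraries of 2 ages and at 3.97 CPM or more in the other 8.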

How the results depend on the processing

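The count of 0 members called held in all 5 tests under other size factors, no filter, NM_ transcripts only, a log2 limit of 1 and the replicate block. It also held in the 4 pairs of ages with all 12 libraries in a fit, and in the slope test on log2 age and over members without exonic overlap. The exceptions were DESeq2, which called 4 members in the slope test and 2 between 3M and 18M, and leaving out each library, where the range was 0 to 0 in all tests but 12M against 18M, at 0 to 1. No pairing by mouse number was seen over all genes, where deviations of same-numbered mice correlated at -0.036 to 0.071. A pairing that touches only some genes was not tested. With the mouse number as a block, edgeR called 0 genes and loci between 3M and 18M, against 17 without it. Members at 1 FPKM or more stayed within 1.5 times of 122 in every alternative. Members with continuous change, 20, numbered 11 with NM_ transcripts only and 10 to 27 with a library left out. Members not overlapping between 3M and 18M, 25, numbered 16 (12.7% against 16.7% of all) with NM_ transcripts only and 26 to 51 with a library left out. In 815 refits of the slopes of 43 named members the sign changed in 23, all at adjusted p above 0.05.

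With 3 mice per age, simulated 2-fold changes between 3M and 18M were recovered in 36.0% by edgeR over 24528 genes and 69.0% by DESeq2, whose false calls were 61 against 10.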
